A study of Mus musculus with 8 samples.

Results

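Cholesterol synthesis, uptake and efflux were followed through 34 mouse genes in 3T3-L1 adipocytes treated with A66, with palmitate or with both. The 34 genes were picked by name, after matching the Ensembl identifiers of the count file to mouse symbols, from 43629 genes in all. They comprised 20 sterol synthesis enzymes in pathway order, 6 genes of SREBP2 control and lipoprotein uptake, and 8 genes of LXR-linked efflux and sterol trafficking. None of the 6 is itself a lipoprotein receptor. No measured value entered that choice, although it was made with earlier results of these data known.

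3T3-L1 is an established mouse preadipocyte line derived from 1 clone, and the cells of all 4 groups had been induced to differentiate with insulin, dexamethasone, isobutylmethylxanthine and rosiglitazone. Treatment began at day 8 of differentiation and lasted 24 h. By the sample labels, the groups were untreated cells, cells given the p110α inhibitor A66 at 2 μM, cells given 0.5 mM palmitate bound to BSA, and cells given both agents, with 2 libraries per group. The methods instead name a DMSO vehicle and another A66 dose, and because the labels name no BSA control, palmitate and its BSA carrier cannot be told apart.

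Cells hold membrane cholesterol within a narrow range by a feedback loop in the endoplasmic reticulum. When sterol is scarce, SCAP escorts the transcription factor SREBP2 to the Golgi, where it is cleaved and then raises transcription of the synthesis enzymes, while INSIG proteins hold SCAP back when sterol is plentiful. When oxysterols accumulate, the nuclear receptors LXRα and LXRβ raise transcription of the exporters ABCA1 and ABCG1. Adipocytes store much free cholesterol around the lipid droplet, and p110α is a PI3-kinase catalytic subunit through which insulin acts on them.

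Promoter windows running from 250 bases before to 50 after the start of a gene were held for 27 of the 34 members, from RefSeq on GRCm38.p6. No window was held for Fdps, Fdft1, Sqle, Stard4, Abcg1, Npc1 and Scarb1. Stretches of 6 promoters are shown because 5 belong to synthesis enzymes that responded to treatment, and the last to the exporter Abca1, which moved the other way with palmitate. Each is written 5′ to 3′ on the strand of its gene. Capitals mark a sterol regulatory element (TCACNCCAC), a CCAAT box (CCAAT, or ATTGG on the other strand) or, in Abca1, an LXR element. The Hmgcs1 stretch, chr13:119690151-119690270 on the plus strand, holds both of the first 2 motifs, and its sterol element begins 137 bases before the start. The Mvk stretch, chr5:114444089-114444268 on the plus strand, holds 5 CCAAT boxes. Those of Idi1 at chr13:8885486-8885605 on the plus strand, Lss at chr10:76531485-76531604 on the plus strand and Cyp51 at chr5:4104698-4104817 on the minus strand hold CCAAT boxes, and that of Abca1 at chr4:53159896-53160015 on the minus strand holds the LXR element.
Hmgcs1: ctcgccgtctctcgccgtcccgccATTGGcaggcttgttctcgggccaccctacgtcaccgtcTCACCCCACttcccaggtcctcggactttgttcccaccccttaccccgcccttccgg
Mvk: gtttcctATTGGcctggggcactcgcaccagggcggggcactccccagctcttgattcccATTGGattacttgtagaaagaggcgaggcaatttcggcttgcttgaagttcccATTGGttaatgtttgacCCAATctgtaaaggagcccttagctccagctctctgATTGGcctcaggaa
Idi1: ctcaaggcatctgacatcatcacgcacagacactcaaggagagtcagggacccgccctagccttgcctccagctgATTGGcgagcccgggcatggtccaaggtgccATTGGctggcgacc
Lss: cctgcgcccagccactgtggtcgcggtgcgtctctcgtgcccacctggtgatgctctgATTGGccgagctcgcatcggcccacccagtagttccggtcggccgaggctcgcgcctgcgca
Cyp51: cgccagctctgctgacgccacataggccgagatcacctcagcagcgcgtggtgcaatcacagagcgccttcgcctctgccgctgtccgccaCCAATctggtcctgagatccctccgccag
Abca1: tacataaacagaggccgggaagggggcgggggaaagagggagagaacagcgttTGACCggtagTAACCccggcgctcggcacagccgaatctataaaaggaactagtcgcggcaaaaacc

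Searched on both strands, the CCAAT box stood in the windows of 16 of 17 synthesis enzymes, Acat2 being the exception, in 4 of 5 SREBP2 genes and in 2 of 5 efflux genes. Among all 27025 genes with a window, expressed in these cells or not, it stood in 41.06%. The members are all expressed, and no share among expressed genes alone was computed for any motif. The GC box (GGGCGG) stood in 15 of 17, 5 of 5 and 3 of 5 windows of the same lists, against 38.2% of all genes. The sterol regulatory element matched Hmgcs1 alone among the members, and 1.44% of all genes. The LXR element was searched as the half-sites GGTNA and GGTCA 5 bases apart, and it matched Abca1 alone, 67 bases before its start, against 0.23% of all genes. Matches of different motifs were counted separately and may overlap. A missing match says only that these letters are not in this window.

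RNA with a poly(A) tail was counted per gene, with between 42247091 and 57529803 counts per library. Values are given as CPM, the counts scaled to a common library total after TMM normalization, and differences as log2 fold changes ± SE from the edgeR quasi-likelihood fit with 2 libraries per group. A gene passed the test at a Benjamini-Hochberg adjusted p under 0.05 over all 14158 genes tested for A66 against untreated cells, or all 14587 genes in the other comparisons. All 34 members were kept by the filter on low counts, and their lowest count in any library was 515, far above the 3 counts taken as the detection floor (at most 0.0706 CPM, counting error only). The 10 adipocyte markers were all present, with summed levels of 9406 to 9685 CPM in untreated cells, 9638 to 10191 with A66, 8584 to 9388 with palmitate and 8335 to 9056 with both. Of 9 preadipocyte and fibroblast markers 8 were present, with summed levels of 7207 to 7618 CPM in untreated cells, 7579 to 7642 with A66, 7634 to 8097 with palmitate and 7345 to 7527 with both, most of it from Col3a1 and Fn1, and only Dlk1 was at 0 in every library. The 7 macrophage markers summed to between 13.3 and 18.9 CPM.

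Per transcript length, the most abundant member in untreated cells was Msmo1, a methylsterol oxidase, at 135 ± 3.19 CPM per kilobase (SD, n = 2). Hmgcs1, which makes HMG-CoA, stood at 125 ± 0.292, the lysosomal sterol carrier Npc2 at 112 ± 5.93, the SREBP2 brake Insig1 at 101 ± 5.20 and the farnesyl diphosphate synthase Fdps at 98.8 ± 5.97 CPM per kilobase. Insig1 and Fdps differed by less than the SD of either, and the Fdps level is uncertain because its exons overlap those of another gene. The lowest members per length were Soat1, which esterifies cholesterol, at 5.24 ± 0.0410 CPM per kilobase, and the sterol reductase Lbr, at 7.76 ± 0.425. Synthesis enzymes were therefore found at both ends of the range, as the plot of levels per length shows.

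**Figure D1:**
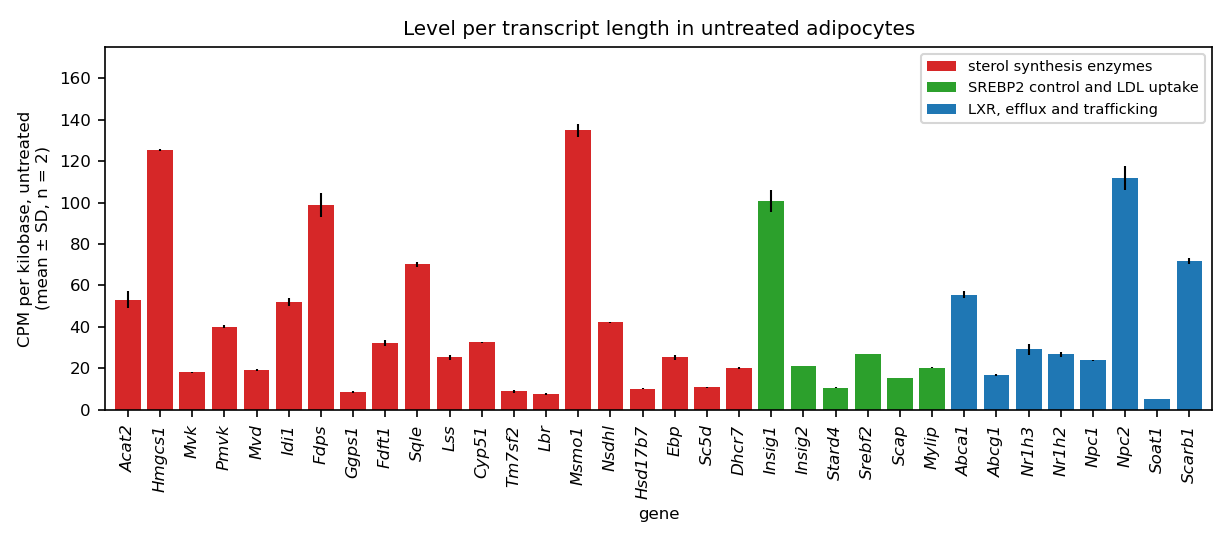
Level of each of the 34 genes in untreated adipocytes, as CPM per kilobase of transcript (bars, mean of 2 libraries; lines, SD), coloured by list. Msmo1, Hmgcs1, Npc2, Insig1 and Fdps are the tallest bars, and Soat1 and Lbr are the shortest.

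A66 lowered 9 of the 20 synthesis enzymes relative to untreated cells, and raised none. The background was 0.77% of all genes called lower and 1.07% called higher. The median log2 fold change of the 20 enzymes was -0.17, against -0.0011 over all genes tested. The falls were small, with percent changes between -17.5% (Sqle) and -12.9% (Hmgcs1) among those that passed. Both A66 libraries lay below both untreated libraries in 16 of the 20 enzymes, as they did in 22.1% of all 14587 genes. In bulk RNA, fewer cells that express a gene and less RNA per cell cannot be told apart.

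Sqle, the squalene epoxidase and a rate-limiting enzyme of sterol synthesis (chr15:59315077-59331192 on GRCm38), had 191 and 196 CPM in the untreated pair, 159 and 159.8 after A66, 247 and 249 after palmitate, and 235 and 232 after both agents. Both A66 libraries lay below both untreated libraries. The difference was -0.28 ± 0.04 on the log2 scale (edgeR adjusted p = 0.000394). Idi1, the isopentenyl diphosphate isomerase, had 154 and 162 CPM in untreated cells and 134 and 134 with A66, a log2 difference of -0.24 ± 0.04 (edgeR adjusted p = 0.00268). Cyp51, the lanosterol demethylase (chr5:4081145-4104746), had 129 and 128 CPM in untreated cells and 111 and 108 with A66. Its log2 difference was -0.23 ± 0.04 (edgeR adjusted p = 0.00327), and again the groups did not overlap. Nsdhl, a dehydrogenase that removes a methyl group from the sterol nucleus, had 91.4 and 92.1 CPM in untreated cells and 78.2 and 77.2 with A66, a log2 difference of -0.24 ± 0.04 (edgeR adjusted p = 0.0033). Hmgcs1 had 433 and 435 CPM in untreated cells and 383 and 372 with A66, a log2 difference of -0.20 ± 0.04 (edgeR adjusted p = 0.00548). The other enzymes that fell were the lanosterol synthase Lss (-0.22), the kinase Pmvk (-0.22), the decarboxylase Mvd (-0.25) and the reductase Dhcr7 (-0.21), with edgeR adjusted p between 0.0135 and 0.0424.

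Of the 11 enzymes that did not pass, Fdft1, the squalene synthase, had a log2 difference of -0.17 (edgeR adjusted p = 0.052) and Msmo1 one of -0.14 (edgeR adjusted p = 0.0864). Fdft1 passed under 6 of 13 alternatives and Msmo1 under 4, including without untreated replicate 1, where they stood at -0.21 and -0.16 (edgeR adjusted p = 0.00113 and 0.00949). Ggps1, which leads away from sterols to protein prenylation, was the only enzyme with a positive value, 0.10 ± 0.06 (4 enzymes were positive without untreated replicate 2), and Lbr had an interval of -0.15 to 0.14 on the log2 scale. None of the 6 SREBP2 genes passed with A66 in edgeR or in DESeq2, and 1 of them, Stard4, had an unadjusted p under 0.05. Srebf2, which encodes SREBP2, had 137 and 136 CPM in untreated cells and 128 and 130.4 with A66, a log2 difference with an interval of -0.16 to 0.01. None of the 8 efflux and trafficking genes passed in edgeR or in DESeq2, and 1, Npc2, had an unadjusted p under 0.05. Abca1 had an interval of -0.02 to 0.14 on the log2 scale and Abcg1 one of -0.03 to 0.15.

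The A66 calls rested on few libraries. Sqle alone kept its call under every alternative. Without A66 replicate 1 there were 5 calls among the 34 members, without A66 replicate 2 there were 2, without untreated replicate 1 there were 11, and with the DESeq2 Wald test there were 6, Mvd, Pmvk and Dhcr7 being lost. Without untreated replicate 2, Mvd lost its call and Npc2 was called higher (0.17, edgeR adjusted p = 0.00171).

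**Figure D2:**
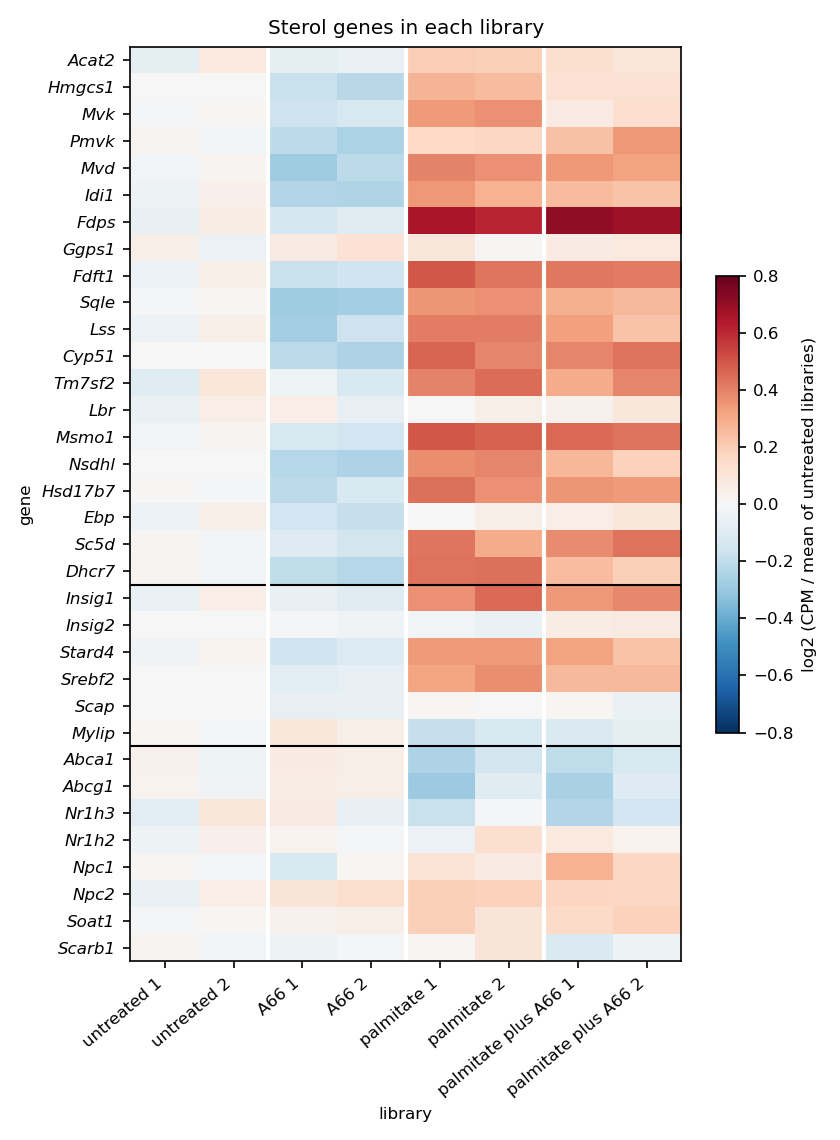
Level of each gene (rows, by list and in pathway order) in each of the 8 libraries (columns), as log2 of CPM over the mean of the untreated libraries. Most enzyme rows are blue with A66 and red with palmitate, the strongest red being Fdps, while the Ggps1 and Lbr rows are pale throughout.

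Palmitate raised 16 of the 20 synthesis enzymes above untreated cells and lowered none, where 0.631% of all genes were called higher and 0.542% lower. The median log2 fold change of the enzymes was 0.37, against 0.00053 over all genes tested. The rise ran along the pathway from the thiolase Acat2 to the reductase Dhcr7. The 4 enzymes that did not pass were Pmvk, Ggps1, Lbr and Ebp.

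Fdps, at the branch point between sterols and other isoprenoids (chr3:89093588-89101959), had 131 and 142 CPM in the untreated pair, 124 and 127 after A66, 214 and 209 after palmitate, and 223 and 218 after both agents. Every library with palmitate lay above every library without it. The share of all genes separated in this way was not counted, here or for other genes below. Its rise with palmitate, 0.63 ± 0.04 on the log2 scale or 1.55-fold (edgeR adjusted p = 1.94e-08), was the largest among the members. The annotated exons of Fdps, over all its transcripts, overlap by 26.71% those of Gm43738 on the same strand. How reads in the shared part were counted is not given, so the Fdps count is uncertain. Msmo1 had 271 and 280.3 CPM in the untreated pair, 252 and 248 after A66, 389.6 and 383 after palmitate, and 378 and 373 after both agents. It rose by 0.49 ± 0.04 (edgeR adjusted p = 1.39e-07). Fdft1 had 115 and 123 CPM in untreated cells and 168 and 160.4 with palmitate, and it rose by 0.46 ± 0.04 (edgeR adjusted p = 1.01e-06). Fdft1 overlaps Ctsb on the opposite strand over 18.31% of its exons, and how strand was handled in the counting is not given in the sources used here. Acat2 has a near-identical copy, Acat3, and Scap (13.23%, opposite strand), Hmgcs1 (12.12%, opposite strand), Tm7sf2 (12.08%, same strand), Lbr (9.24%, opposite strand) and Idi1 (9.22%, opposite strand) also share exon bases with neighbours, so their counts carry the same doubt. Cyp51, Ggps1, Lss, Npc1 and Nr1h3 share smaller parts, of at most 5.44% (Ggps1). Dhcr7 had 57.2 and 55.5 CPM in untreated cells and 76.3 and 76.5 with palmitate, and it rose by 0.44 ± 0.05 (edgeR adjusted p = 5.04e-06). Cyp51 had 177 and 168 CPM with palmitate, and it rose by 0.43 ± 0.04 (edgeR adjusted p = 1.97e-06). In all 5 genes the palmitate libraries lay above the untreated ones, as they did in 20.4% of all genes.

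Of the early steps, Acat2, Hmgcs1, Mvk, Mvd and Idi1 passed and Pmvk did not, at 0.16 ± 0.05 (edgeR adjusted p = 0.146). Acat2, the cytosolic thiolase, had 113 and 126 CPM in untreated cells and 136 and 136 with palmitate, a rise of 0.19 ± 0.05 (edgeR adjusted p = 0.0446). Hmgcs1 had 523 and 518 CPM with palmitate, a rise of 0.26 ± 0.04 (edgeR adjusted p = 0.000403). Mvk, the mevalonate kinase, had 29.8 and 30.1 CPM in untreated cells and 37.9 and 38.6 with palmitate, a rise of 0.35 ± 0.06 (edgeR adjusted p = 0.00115). Mvd rose by 0.38 ± 0.05, Idi1 by 0.31 ± 0.04 and Sqle by 0.36 ± 0.04. Later in the pathway, Lss rose by 0.41 ± 0.05, the keto-reductase Hsd17b7 by 0.41 ± 0.05, Nsdhl by 0.38 ± 0.04 and the desaturase Sc5d by 0.36 ± 0.05, with edgeR adjusted p of at most 0.000218. Tm7sf2, a sterol reductase counted at only 12.1 and 13.9 CPM in untreated cells and 17.1 and 17.7 with palmitate, rose by 0.41 ± 0.09 (edgeR adjusted p = 0.0188). Lbr, which catalyses the same reduction as Tm7sf2, had 26.2 and 28.3 CPM in untreated cells and 27.2 and 28.1 with palmitate, and its log2 interval was -0.12 to 0.15. The sterol isomerase Ebp, next to Sc5d in the pathway, had 42.9 and 45.9 CPM in untreated cells and 44.3 and 45.8 with palmitate, with an interval of -0.09 to 0.13.

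Of the 6 SREBP2 genes, 3 rose with palmitate and none fell, with a list median of 0.17, beside 0.631% of all genes called higher and 0.542% lower. Insig1 had 262 and 282 CPM in the untreated pair, 261 and 254 after A66, 350.3 and 371 after palmitate, and 346 and 355 after both agents, and it rose by 0.41 ± 0.04 (edgeR adjusted p = 6.86e-06). Srebf2 had 137 and 136 CPM in untreated cells and 170.0 and 177 with palmitate, and it rose by 0.35 ± 0.04 (edgeR adjusted p = 1.68e-05). Stard4, a cytosolic sterol transfer protein, had 53.2 and 55.2 CPM in untreated cells and 68.5 and 68.5 with palmitate, and it rose by 0.34 ± 0.05 (edgeR adjusted p = 0.000279). Both palmitate libraries lay above both untreated ones in 4 of the 6 genes, these and Scap, as in 20.4% of all genes. Insig2, the close relative of Insig1, had an interval of -0.14 to 0.06, and Scap one of -0.08 to 0.10. Mylip, an LXR target that tags lipoprotein receptors for degradation, stood at -0.15 ± 0.05 (edgeR adjusted p = 0.139).

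Among the 8 efflux and trafficking genes, 1 fell with palmitate and 1 rose, beside 0.542% of all genes called lower and 0.631% higher. Abca1, which exports cholesterol to apolipoprotein acceptors (chr4:53030787-53159895), had 584 and 557 CPM in the untreated pair, 597 and 589 after A66, 481 and 516 after palmitate, and 495 and 521 after both agents. All palmitate libraries lay below all libraries without it, and the change with palmitate alone was -0.20 ± 0.04 (edgeR adjusted p = 0.028). Abcg1, which exports cholesterol to HDL, had 101 and 96.8 CPM in the untreated pair, 103 and 102 after A66, 80.7 and 92.5 after palmitate, and 82.8 and 92.1 after both agents, and its change was -0.19 ± 0.06 (edgeR adjusted p = 0.114). The Abcg1 value was -0.10 without palmitate replicate 1 and -0.29 without palmitate replicate 2, where it passed (edgeR adjusted p = 0.00932), as it did without the filter on low counts (0.0114). Npc2 had 355 and 383 CPM in untreated cells and 421 and 419 with palmitate, and it rose by 0.19 ± 0.04 (edgeR adjusted p = 0.0277). Both palmitate libraries lay below both untreated ones in 2 of the 8 genes, as in 20.2% of all genes. Soat1 stood at 0.15 ± 0.05 (edgeR adjusted p = 0.201). The receptors Nr1h3 (LXRα) and Nr1h2 (LXRβ), the lysosomal exporter Npc1 and the HDL receptor Scarb1 did not pass, with log2 values of -0.10, 0.04, 0.09 and 0.06.

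Of the 21 members called with palmitate, 17 kept the call under every alternative. The others were Acat2, Tm7sf2, Abca1 and Npc2, and all of them lost it without untreated replicate 1, where Acat2 stood at 0.11 (edgeR adjusted p = 0.474), Abca1 at -0.16 (edgeR adjusted p = 0.247) and Npc2 at 0.13 (edgeR adjusted p = 0.333). Without palmitate replicate 1 the same genes lost their calls, and without palmitate replicate 2 Acat2 and Tm7sf2 did. Abca1 and Acat2 also lost theirs without A66 replicate 1, and Acat2 without A66 replicate 2 or replicate 2 of the combined group, libraries of neither group compared that enter the same fit. With the other libraries left out of the fit, Abca1 (edgeR adjusted p = 0.0681), Npc2 (0.0778) and Acat2 (0.0762) lost their calls, and with library size only Acat2 did (0.0695). All 10 adipocyte markers had negative log2 values with palmitate (median -0.085), and 1 (Pnpla2, -0.25 ± 0.05) was called lower. Of the preadipocyte markers, Col1a1 (0.25 ± 0.04) and Postn (0.32 ± 0.06) were called higher. Over all genes 0.542% were called lower and 0.631% higher. The part of these markers in the result was not tested.

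**Figure D3:**
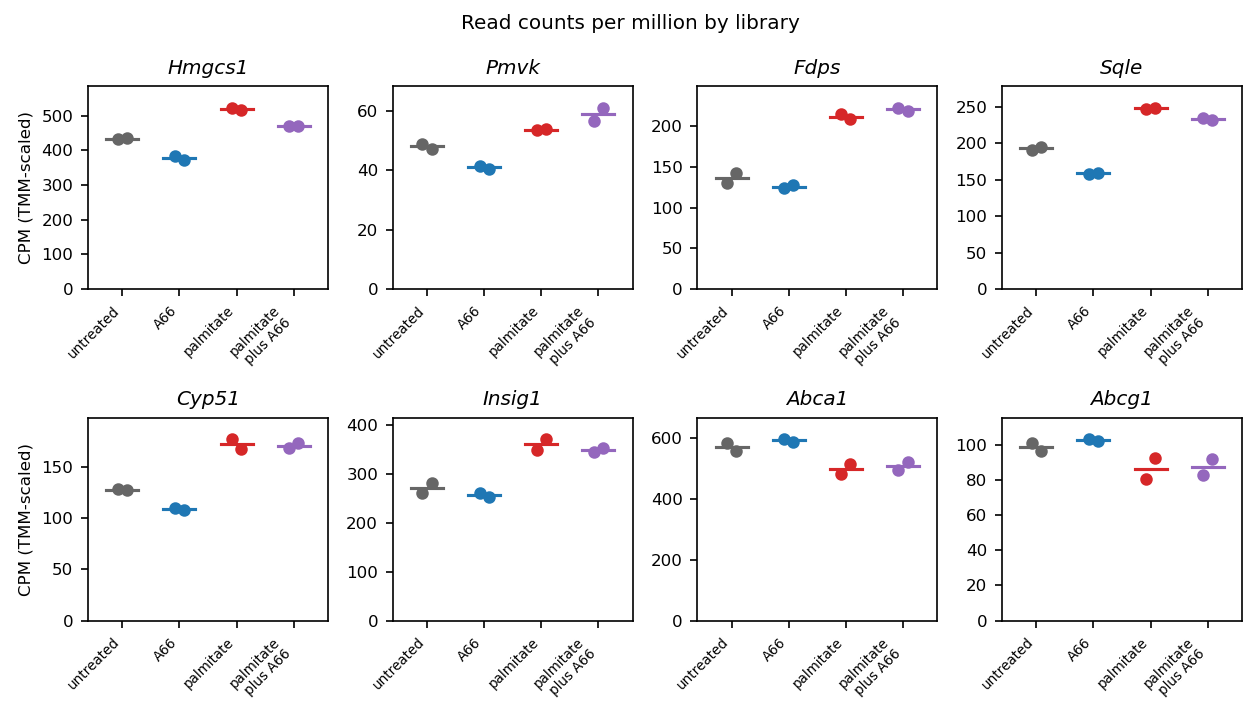
CPM of 8 genes in each library (points) with the mean of each group of 2 (lines), on linear axes from 0. For Fdps, Sqle, Cyp51 and Insig1 all 4 libraries with palmitate stand above all 4 without it, and for Abca1 and Abcg1 they stand below.

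In palmitate-treated cells A66 lowered 3 of the 20 synthesis enzymes, Hmgcs1, Mvk and Dhcr7, and raised none, where 1.84% of all genes were called lower and 0.973% higher. The median log2 fold change of the enzymes was -0.054, and it ran from -0.071 without palmitate replicate 2 to -0.031 without palmitate replicate 1. Mvk had 37.9 and 38.6 CPM with palmitate and 31.3 and 32.9 with both agents, and it changed by -0.25 ± 0.06 (edgeR adjusted p = 0.0132). Dhcr7 had 76.3 and 76.5 CPM with palmitate and 66.9 and 64.3 with both, and it changed by -0.22 ± 0.05 (edgeR adjusted p = 0.00736). Hmgcs1 had 523 and 518 CPM with palmitate and 471 and 471 with both, and it changed by -0.14 ± 0.04 (edgeR adjusted p = 0.0488). In all 3 genes the groups did not overlap. The same held in this direction for 13 of the 20 enzymes and for 22.4% of all genes. Nsdhl stood beside the threshold, at -0.15 ± 0.04 (edgeR adjusted p = 0.0501), and it passed under 8 of 17 alternatives, the DESeq2 Wald test among them (adjusted p = 0.0436).

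Among the genes that had fallen with A66 alone, Cyp51 had a log2 value of -0.02 ± 0.04 with A66 in palmitate-treated cells and Mvd one of -0.05 ± 0.05. Sqle had one of -0.09 ± 0.04 (edgeR adjusted p = 0.304). Of the 20 enzymes, 15 had the same sign with A66 without and with palmitate, 14 negative and 1 positive. Hmgcs1 and Dhcr7 were called lower both with and without palmitate, between groups that share no library, although the fit with palmitate also held the other 4 libraries. None of the SREBP2 genes and none of the efflux genes passed in the main edgeR fit or in DESeq2, with 2 of each at an unadjusted p under 0.05. Scarb1 was called lower with library size only (-0.16, edgeR adjusted p = 0.0437) and without the filter on low counts (-0.14, edgeR adjusted p = 0.0439). Its value was -0.18 without palmitate replicate 1. None of the 3 calls held under every alternative. Without palmitate replicate 2 no member passed, and with either library of the combined group left out 1 did. Hmgcs1 also lost its call with the other libraries left out of the fit, without either A66 library or without palmitate replicate 1. Beside them, Slc2a4 and Retn, 2 of the 10 adipocyte markers, and Col1a1 and Postn among the preadipocyte markers were called lower, beside 1.84% of all genes, and their part in the result was not tested.

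In A66-treated cells palmitate raised 18 of the 20 synthesis enzymes, all but Ggps1 and Lbr, and lowered none, where 1.46% of all genes were called higher and 1.27% lower. The median log2 fold change was 0.49. Both libraries of the combined group lay above both A66 libraries in 18 of the 20 enzymes, as in 23.2% of all genes. Fdps was again the member with the largest rise, 0.81 ± 0.04 or 1.75-fold (edgeR adjusted p = 1.29e-10). Cyp51 rose by 0.64 ± 0.04 (edgeR adjusted p = 1.79e-09), from 111 and 108 CPM with A66 to 168 and 173 with both. Msmo1 rose by 0.59 ± 0.04, Fdft1 by 0.59 ± 0.04, Mvd by 0.58 ± 0.06 and Sqle by 0.55 ± 0.04, with edgeR adjusted p of at most 5e-07. Pmvk, which had not passed with palmitate alone, had 48.6 and 47.2 CPM in the untreated pair, 41.5 and 40.3 after A66, 53.5 and 53.8 after palmitate, and 56.4 and 60.9 after both agents. Both libraries of the combined group were the highest of the 8, and the rise over A66 was 0.52 ± 0.05 (edgeR adjusted p = 7.88e-07). Ebp rose by 0.24 ± 0.05 (edgeR adjusted p = 0.0115).

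In the same comparison Insig1 rose by 0.45 ± 0.04, Stard4 by 0.41 ± 0.05 and Srebf2 by 0.34 ± 0.04, with edgeR adjusted p of at most 1.46e-05. Insig2, Scap and Mylip did not pass, at 0.09, 0.05 and -0.16. Mylip was called lower under 4 alternatives, with edgeR adjusted p between 0.033 and 0.0482, and Nr1h3 (-0.20) under 2, without the filter on low counts (0.0145) and with the other libraries left out of the fit (0.0311). Abca1 fell, with a log2 value of -0.22 ± 0.04 (edgeR adjusted p = 0.00445), and Abcg1 fell, with -0.23 ± 0.06 (edgeR adjusted p = 0.0233). Npc1, which moves cholesterol out of lysosomes, had 125 and 124 CPM in the untreated pair, 115 and 126 after A66, 135 and 131 after palmitate, and 151 and 140.0 after both agents, and it rose by 0.27 ± 0.05 (edgeR adjusted p = 0.00153). Of these 24 calls, 17 held under every alternative. With library size only, Acat2 lost its call (0.16, edgeR adjusted p = 0.0817). Without A66 replicate 1, Acat2, Mvk, Tm7sf2, Ebp, Abca1, Abcg1 and Npc1 lost theirs, and some of these also did without A66 replicate 2 or either library of the combined group. All 10 adipocyte markers had negative log2 values here (median -0.25), and 7 were called lower, beside 1.27% of all genes. Retn fell by the most (-19.8%). Of the 7 macrophage markers 4 were tested, and Cd68 was called higher (0.91 ± 0.16, edgeR adjusted p = 0.0014), from 2.65 and 3.28 CPM with A66 to 5.40 and 5.74 with both. The part of these markers in the result was not tested.

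**Figure D4:**
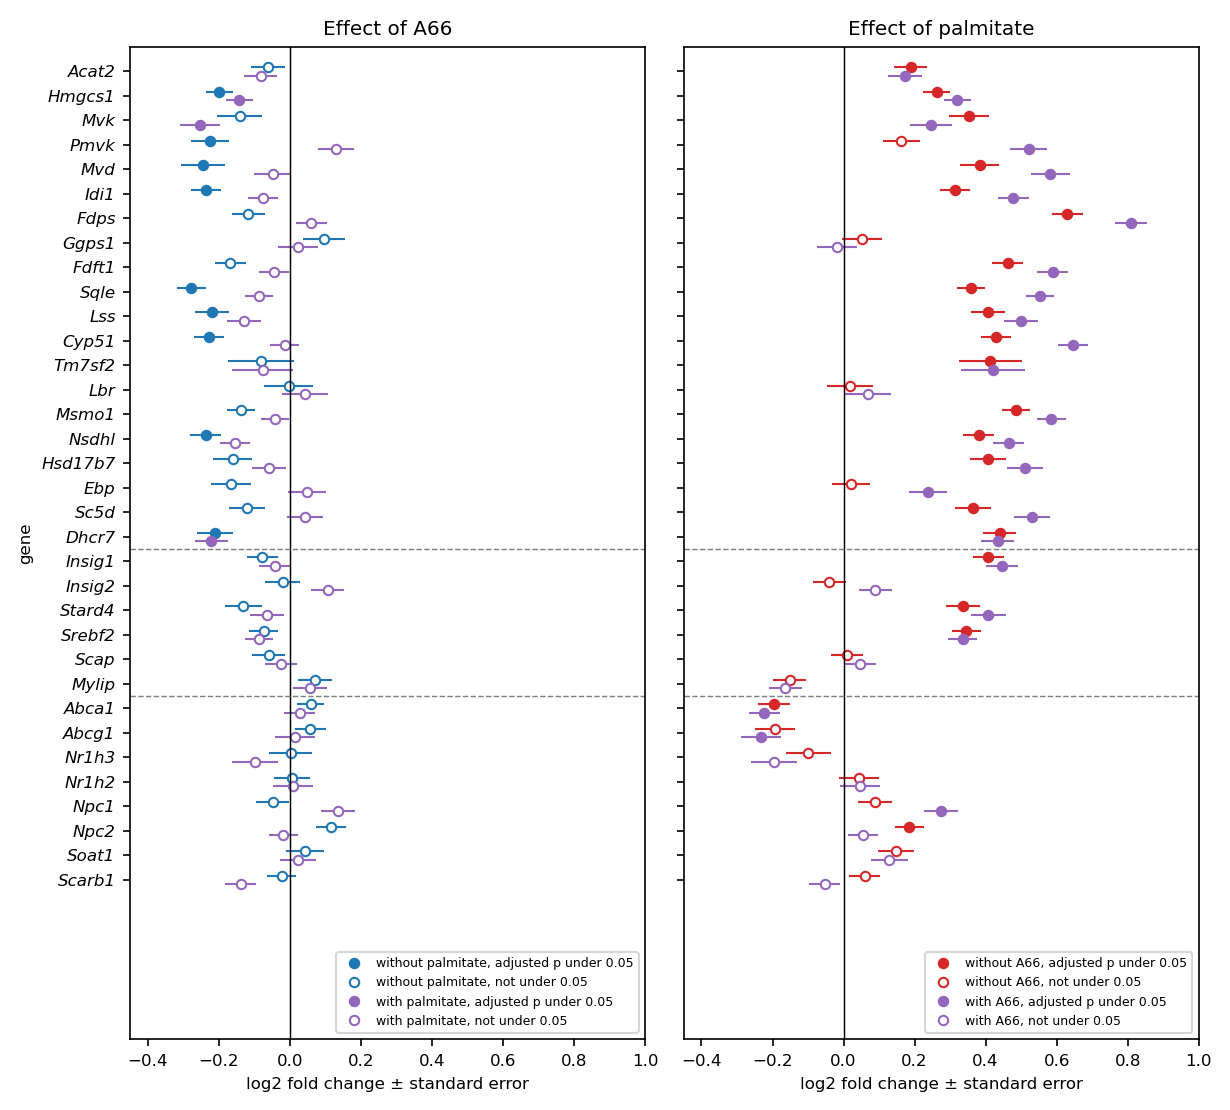
Log2 fold change ± SE of each gene for A66 (left) and palmitate (right), each without and with the other agent, with filled points at an edgeR adjusted p under 0.05. Most enzymes lie left of 0 for A66 without palmitate and right of 0 for palmitate in both settings, while the efflux genes Abca1 and Abcg1 lie left of 0 for palmitate.

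Whether the effect of A66 differed between palmitate-treated and other cells was tested directly by the interaction. None of the 34 members passed in edgeR, where 1 of 14587 genes did, which is 0.00686%. At an unadjusted p under 0.05 there were 10 members, 8 of them synthesis enzymes, and 1155 of all genes. The median interaction of the enzymes was 0.10 on the log2 scale, which means a less negative A66 effect with palmitate. The largest was that of Pmvk, 0.36 ± 0.07 (unadjusted p = 6.35e-05, edgeR adjusted p = 0.132). Cyp51 had 0.22 ± 0.06 (edgeR adjusted p = 0.331) and Sqle 0.19 ± 0.06 (edgeR adjusted p = 0.364). DESeq2 called 1 member, Sqle (adjusted p = 0.0454), and gave no adjusted p for Pmvk, Mvd, Ebp and Sc5d. Without the filter on low counts edgeR called Pmvk (adjusted p = 0.00782). In 5 of the 34 members every library moved in opposite directions under an agent without and with the other, as in 8.69% of all genes. For Srebf2 and Dhcr7 the intervals were -0.13 to 0.11 and -0.14 to 0.13.

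**Figure D5:**
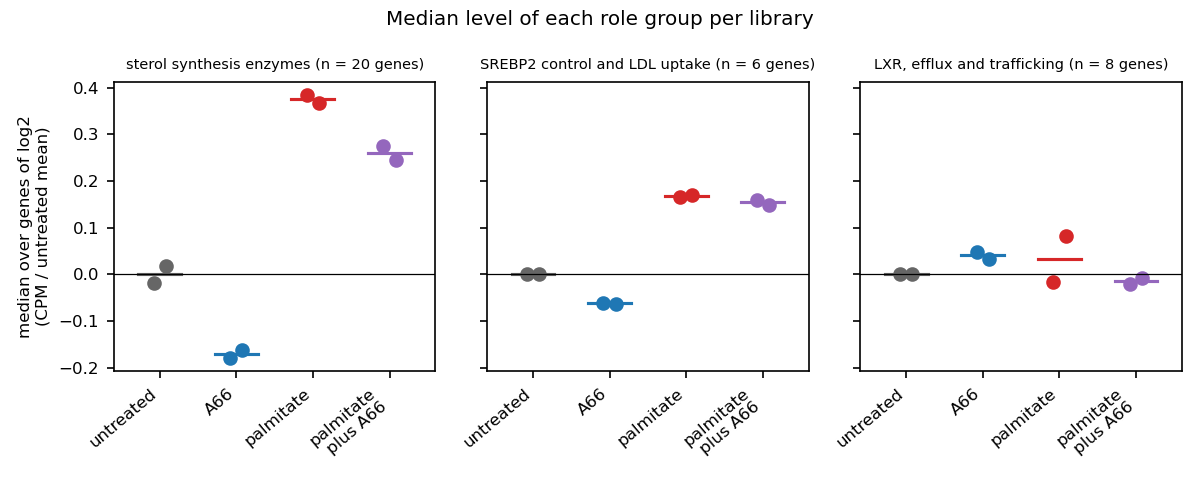
Median over the genes of each list of log2 CPM relative to the untreated mean, for each library (points) with group means (lines). Enzymes stand lowest with A66, at -0.18 and -0.16, and highest with palmitate, at 0.38 and 0.37, with the combined group at 0.28 and 0.25.

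Other genes of the sterol pathway were read from a list of 34, of which 33 were tested in the fit of 8 libraries and 32 in that of 4 libraries. None was called higher in any of the 4 treatment comparisons, and 2 or 3 were called lower in each. Over all genes, the shares called lower were 0.77% for A66, 0.542% for palmitate, 1.84% for A66 in palmitate-treated cells and 1.27% for palmitate in A66-treated cells. Rnf145, a ubiquitin ligase of the endoplasmic reticulum that is an LXR target, had 76.5 and 68.9 CPM in the untreated pair, 75.9 and 69.6 after A66, 50.0 and 53.9 after palmitate, and 47.1 and 51.1 after both agents. All libraries with palmitate lay below all without it, and the change was -0.48 ± 0.06 with palmitate alone (edgeR adjusted p = 3.34e-05) and -0.57 ± 0.06 in A66-treated cells (edgeR adjusted p = 1.86e-06). Gramd1b, which carries cholesterol from the plasma membrane to the endoplasmic reticulum, had 312 and 299 CPM in the untreated pair, 267 and 263 after A66, 258 and 271 after palmitate, and 230.1 and 240.3 after both agents. It fell in all 4 comparisons, by between -0.17 and -0.21 on the log2 scale. Lpcat3, a phospholipid acyltransferase and LXR target, fell with A66 alone (-0.21 ± 0.04, edgeR adjusted p = 0.00476) and with A66 in palmitate-treated cells (-0.19 ± 0.04, edgeR adjusted p = 0.00883). It was not called in either palmitate comparison, with 213 and 208 CPM in untreated cells and 219 and 226 with palmitate. Cav1, the caveolar coat protein, fell with A66 in palmitate-treated cells (-0.22 ± 0.04, edgeR adjusted p = 0.00362). Srebf1, which encodes SREBP1 and is named outside the rule, did not pass, with log2 values of -0.02 for A66 and -0.07 for palmitate.

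Fatty acid synthesis, which is controlled chiefly by SREBP1, was read from 16 genes for comparison. A66 lowered 4 and raised none, with a median of -0.12, where 0.77% of all genes were called lower. Palmitate raised 7 and lowered 1, with a median of 0.12, where 0.631% of all genes were called higher and 0.542% lower. In palmitate-treated cells A66 lowered 3, beside 1.84% of all genes. In A66-treated cells palmitate raised 8 and lowered 1, beside 1.46% and 1.27% of all genes. With A66 alone the elongase Elovl6 fell (-0.32 ± 0.06, edgeR adjusted p = 0.00245), as did the desaturase Scd2 (-0.18 ± 0.04, edgeR adjusted p = 0.00703). With palmitate the acetyl-CoA synthetase Acss2 rose by 0.58 ± 0.05 and the desaturase Fads2 by 0.52 ± 0.04, with edgeR adjusted p of at most 1.01e-06. Acly, which supplies cytosolic acetyl-CoA for both pathways, rose by 0.39 ± 0.04 (edgeR adjusted p = 2.09e-06). Thrsp, a lipogenic regulator, fell with A66 (-0.22 ± 0.06, edgeR adjusted p = 0.0331). It was also the gene of the list that fell with palmitate (-0.26 ± 0.06, edgeR adjusted p = 0.0331), and is named there after its values were seen. The fatty acid list thus held members called in both directions with palmitate, where the sterol enzymes held calls in 1 direction. The difference between the lists was not tested.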

How the data were processed

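The authors aligned the reads with TopHat 2.0.11 to GRCm38 and deposited raw counts per Ensembl gene made with HTSeq, without normalization (tools and builds per the submitters' processing notes). The kit was a stranded mRNA kit with oligo-dT selection, and the strand setting and annotation release of the counting are not given in the sources used here. Columns deposited beside the counts hold the authors' own DESeq2 comparison, and they were not used. Symbols, coordinates and transcript lengths came from GENCODE release M21, which named 42548 of 43629 genes.

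Groups came from the treatment label, and the methods name 2 biological repeats. Counts were tested in R 4.3.3 with edgeR 4.0.16 (TMM, filterByExpr with a minimum count of 10, quasi-likelihood test, two-sided, Benjamini-Hochberg over all genes tested, threshold 0.05), after testing on simulated data. A66 against untreated cells was fitted on 4 libraries and the rest on all 8. No permutation test was run, since 2 against 2 cannot pass the threshold. The mean chi-square between replicates was 6.15 to 8.99 per gene, above counting noise. Same-numbered replicates did not deviate together (correlations of -0.050 to 0.086), so no block was used. Intervals are 95% confidence intervals.

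The members and lists were chosen with earlier results of these data known. Values were given chiefly for members that passed in at least 1 comparison. Some values were also given for members that passed in none, such as Lbr, Ggps1, Soat1 and Mylip. From each further list at most 3 genes per comparison were given, with exceptions marked. Alternatives were RLE scaling, library size only, DESeq2 1.42.0, no filter, a minimum of 10 counts in each library, a change of the libraries fitted together, the replicate block, a transcript-length correction (loess, span 0.4) and leaving out each library.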

Additional observations from a re-analysis of the deposited data

Results flagged for a closer look

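For 5 of the 34 genes, every library moved 1 way under an agent in cells without the other agent and the opposite way in cells with it. The same held for 8.69% of all 14587 genes tested, so the count is not read as a result about these genes. The interaction, which tests that difference, did not pass for any of them in edgeR with the filter on low counts. Pmvk was lower with A66 alone and higher with A66 in palmitate-treated cells, an interaction of 0.36 on the log2 scale (edgeR adjusted p = 0.132). Without that filter Pmvk passed, with 0.35 (edgeR adjusted p = 0.00782). Ebp showed the same pattern with 0.22 (edgeR adjusted p = 0.472), as did Fdps with 0.18 (edgeR adjusted p = 0.473). Insig2 did so for A66, and also for palmitate without and with A66, with the same interaction of 0.13 (edgeR adjusted p = 0.647). Npc2 was higher with A66 alone and lower with A66 in palmitate-treated cells, with -0.13 (edgeR adjusted p = 0.608).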

How the results depend on the processing

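No call among the 34 genes changed direction under any alternative run. Signs of genes that had not passed did change. With palmitate, 18 of the 20 enzymes were positive without untreated replicate 1, against all 20 with every library, and the efflux median ran from -0.014 to 0.083 as each library was left out. With A66 alone, 4 enzymes instead of 1 were positive without untreated replicate 2. No scaling alternative moved the median of all genes by over 0.1 on the log2 scale. Without the filter on low counts, the genes called over the whole table were 459 instead of 261 for A66 against untreated cells, 396 instead of 171 for palmitate against untreated cells, 652 instead of 410 for A66 in palmitate-treated cells, 664 instead of 398 for palmitate in A66-treated cells, and 91 instead of 1 for the interaction. For A66 in palmitate-treated cells the members called were 5 instead of 3 without the filter and also with library size only, Nsdhl and Scarb1 being added. With the other libraries left out of the fit, palmitate in A66-treated cells gave 689 calls over all genes. For the interaction over all genes, library size only gave 2 calls, DESeq2 21, and the length correction 3, and among the members DESeq2 and the fit without the filter gave 1 each. The causes of these shifts were not tested. DESeq2 gave no adjusted p in the interaction for Pmvk, Mvd, Ebp and Sc5d among the members tried singly.

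The numbers did not pair the samples. A replicate block for them moved the interaction, which gave 3 calls over all genes, and 3 also with the block and the length correction together. The block added Fdft1 for A66 alone (edgeR adjusted p = 0.0488), and among the members described singly it changed no other call.

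Leaving out each library in turn gave, over all genes and among the members, 98 to 635 and 2 to 11 calls for A66 alone, 71 to 245 and 17 to 21 for palmitate alone, 147 to 494 and 0 to 4 for A66 in palmitate-treated cells, 107 to 502 and 17 to 24 for palmitate in A66-treated cells, and 0 to 10 and 0 to 0 for the interaction. A group left with 1 library was assumed to vary like the others. Over all alternatives, single genes kept their side of the threshold in 1362 cases, gained a call in 34 and lost it in 69, and 60 of those losses came from leaving out a library. The medians of the 3 lists stayed within a set limit in 217 cases and moved by more in 23. That limit was the SD of a difference between 2 libraries, or 2 SD of replicates for the interaction. With 2 libraries per group, small changes rest on few measurements.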
